A study of Mus musculus with 10 samples.

Results

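Serotonin receptor genes were described in the nucleus accumbens (NAc), the ventral part of the striatum, in mice of the inbred strains C57BL/6J (B6) and DBA/2J (D2). The members were chosen by name as the serotonin receptor genes Htr1a, Htr1b, Htr1d, Htr1f, Htr2a, Htr2c, Htr3a, Htr4, Htr6 and Htr7, which are 10 of the 29883 genes in the deposited count table. Another 4 receptor genes of the same family (Htr2b, Htr3b, Htr5a and Htr5b) are given beside them. All 10 mice were male, 9 weeks old and had received no ethanol, and they were housed 4 to a cage. There were 5 B6 and 5 D2 mice, and none carried an engineered allele, with 1 poly-A RNA-seq library per mouse. B6 and D2 are the parents of the BXD recombinant inbred strains and differ in their behavior toward ethanol, and the comparison asks how gene expression differs between the strains without ethanol.

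Serotonin is released in the NAc by axons of neurons that lie in the raphe nuclei of the brainstem. The receptors that receive it fall into classes by the way they signal. The Htr1 receptors couple to Gi/o proteins, which lower cyclic AMP and open potassium channels, and Htr1a and Htr1b also serve as autoreceptors on the serotonin neurons themselves. The Htr2 receptors couple to Gq, which activates phospholipase C and protein kinase C. Htr4, Htr6 and Htr7 couple to Gs and raise cyclic AMP, while Htr3a forms a ligand-gated ion channel. A receptor can act on an axon terminal far from the cell body that holds its mRNA, so that an mRNA level in dissected tissue describes the cell bodies within the dissection. In such bulk tissue, fewer cells of a type and less RNA per cell cannot be told apart.

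The G-protein-coupled members shown here share an aspartate-arginine-tyrosine (DRY) motif at the inner end of the third membrane helix, followed by the second intracellular loop that meets the G protein. The reference sequence from the first DRY codon onward is shown because it carries the shared motif, and because in Htr2c the same stretch holds the adenosines that ADAR enzymes edit to inosine. Each window is 30 bases of coding exon, written 5′ to 3′ along the gene from GRCm39, and the capitals mark the DRY codons.
Htr1a: GACAGGTACtgggcaatcaccgaccctata
Htr1b: GACCGCTACtgggccatcaccgatgcggtg
Htr1d: GACAGATACtgggccatcaccgatgccctg
Htr1f: GATAGGTACcgcgccatcacagatgcagtt
Htr2a: GACCGCTACgtggctatccagaaccccatt
Htr2c: GACCGGTATgtagcaatacgtaatcctatt
Htr6: GACCGCTACctgctcatcctctcgccgctg
Htr7: GACAGGTACcttgggatcaccaggcccctc
Htr2c with the edited adenosines in capitals: gaccggtatgtagcaAtAcgtAAtcctAtt
The windows lie at chr13:105581158-105581187 on the forward strand for Htr1a, chr9:81514153-81514182 on the reverse strand for Htr1b, chr4:136170166-136170195 on the forward strand for Htr1d and chr16:64746904-64746933 on the reverse strand for Htr1f. Those of Htr2a and Htr2c lie at chr14:74882529-74882558 and chrX:145952667-145952696, both on the forward strand, and that of Htr6 at chr4:138801677-138801706 on the reverse strand. In Htr7 an intron interrupts the DRY codons, and the window joins chr19:36034106-36034110 and chr19:35947440-35947464 on the reverse strand.
Htr1b and Htr1d were the most alike of these windows, with 26 of 30 bases identical, and Htr1a shared 23 of 30 with Htr1d. Htr2a and Htr2c shared 21 of 30, and Htr1f and Htr6 were the least alike with 13. The Htr1 members each have 1 coding exon, whereas Htr2a, Htr6 and Htr7 have 3, Htr2c has 4, Htr4 has 6 and Htr3a has 9. Gene counts do not show whether a transcript was edited, and editing was not analysed here.

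Between 96977262 and 111468080 reads per B6 library and between 104443243 and 116776714 reads per D2 library were counted on genes. The mean depth of D2 was 7061356 reads higher (exact permutation test, two-sided, p = 0.0635). The ranges of the strains overlapped, but the D2 median of 113171483 reads lay above the deepest B6 library. The test does not show that depth was equal in the strains. B6 replicates 3 and 5 stood apart from the other B6 mice. Slc17a7, the vesicular glutamate transporter of cortical projection neurons, had 774 and 791 CPM (counts scaled to the library size after TMM normalization) in these libraries, 57.2 to 130.0 in the other B6 libraries and 174 to 493 in D2. The same pair of libraries was also the most alike of the 20 pairs within a strain. Their mean chi-square was 4.89 per gene, against 17.5 to 119 in the rest. They thus differed by more than counting noise, which does not show whether they came from separate mice. They were kept as separate mice because their labels name different mice. The strain test of each member is therefore given with and without B6 replicates 3 and 5, a choice made after the values of this pair were seen. For the other gene lists mainly the number of called genes is given without this pair. The called cell markers are given with all mice only.

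Htr2c had the highest level of the members when counts were scaled to length, and Htr1f the lowest, in the same order of mean levels in both strains. Levels per length were CPM divided by the kilobases of annotated exon (CPM per kb). In B6 they averaged 15.6 ± 1.13 (SD, n = 5) for Htr2c, 10.96 ± 1.41 for Htr1b, 5.35 ± 0.360 for Htr2a, 3.20 ± 0.309 for Htr6, 3.20 ± 0.184 for Htr1d and 2.77 ± 0.492 for Htr1a. Htr7 followed with 1.87 ± 0.493, Htr4 with 1.51 ± 0.863, Htr3a with 0.886 ± 0.305 and Htr1f with 0.818 ± 0.137 CPM per kb. Htr2c, Htr1b and Htr2a, in that order, did not overlap with each other or with Htr6 across the 5 B6 mice, while from Htr6 downward every pair of neighbours overlapped. In D2 the means were 17.4 ± 1.58 (SD, n = 5) for Htr2c, 8.75 ± 1.39 for Htr1b, 5.87 ± 0.682 for Htr2a, 3.31 ± 0.389 for Htr6, 3.03 ± 0.564 for Htr1d and 3.03 ± 0.282 CPM per kb for Htr1a. They were 2.61 ± 0.462 for Htr7, 1.68 ± 0.435 for Htr4, 0.747 ± 0.150 for Htr3a and 0.693 ± 0.0617 CPM per kb for Htr1f. Neighbours that did not overlap in D2 were Htr2c and Htr1b, Htr2a and Htr6, and Htr4 and Htr3a.

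**Figure D1:**
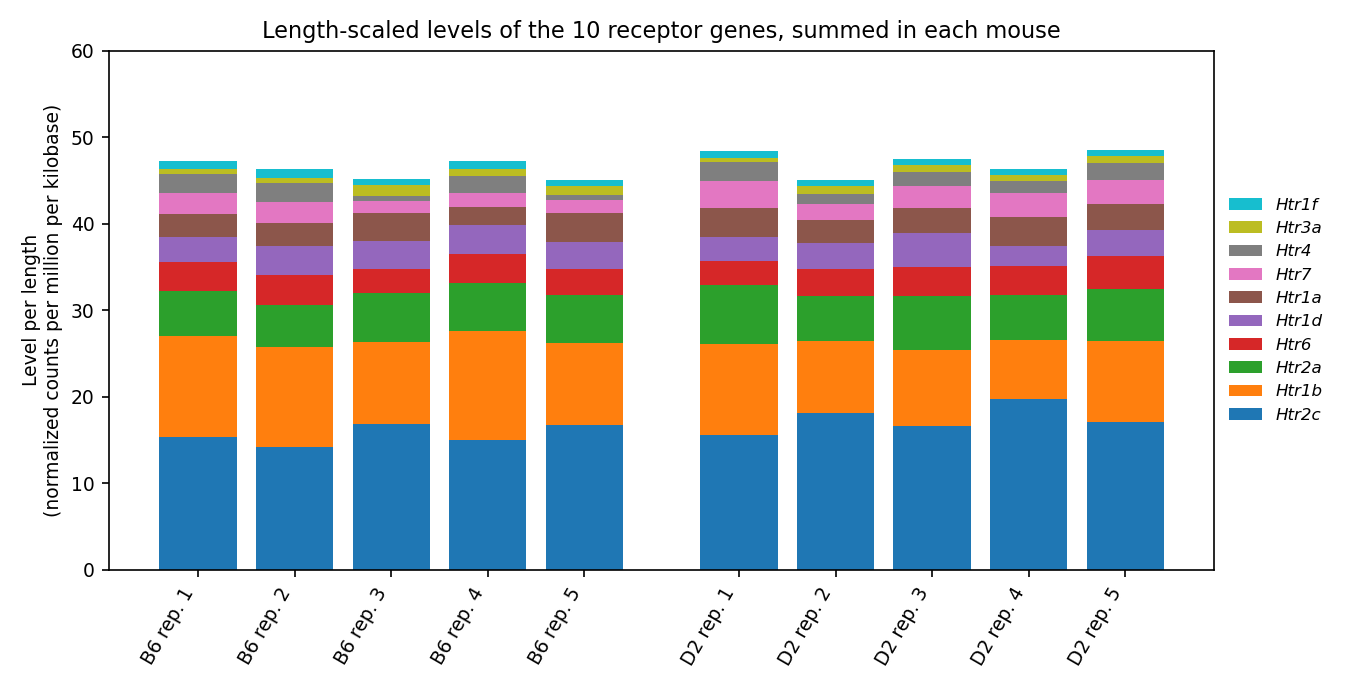
Levels per length (CPM per kb of exon) of the 10 receptor genes, stacked in 1 bar for each mouse. Htr2c and Htr1b make up the largest pieces of every bar, and the whole bar averages 46.2 in B6 and 47.2 in D2.

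The length-scaled levels of the 10 genes summed to 46.2 ± 1.06 CPM per kb in B6 and 47.2 ± 1.48 in D2 (SD, 5 mice each). Htr2c held 33.9% ± 3.08 of this sum in B6 and 37.1% ± 4.23 in D2, and Htr1b held 23.7% ± 2.57 and 18.5% ± 2.60. By class, the 4 Gi/o-coupled genes made up 36.7% to 40.2% of the sum in B6 mice and 28.3% to 36.0% in D2 mice. The pair of Gq-coupled genes made up 41.1% to 49.8% in B6 and 46.2% to 53.9% in D2, and the 3 Gs-coupled genes 10.7% to 17.4% and 13.6% to 17.6%. These shares are descriptions without a test, and they depend on the length given to each gene. With the longest transcript in place of all exons, Htr2c held 48.2% in B6, and the order of the genes was unchanged. The ranges of the Gi/o share, apart with all exons, then overlapped, at 27.5% to 31.2% in B6 and 20.3% to 27.7% in D2.

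No member passed an adjusted p (padj) of 0.05 between the strains in edgeR's quasi-likelihood test, where 18.3% of all 29883 genes passed (8.50% higher and 9.83% lower in D2). At an unadjusted p under 0.05 there were 3 members, Htr1b, Htr7 and Htr2c, against 29.4% of all genes. DESeq2 called 2 members, Htr1b (padj = 0.0316) and Htr7 (padj = 0.0246), against 20.7% of all genes. The CPM of the strains overlapped for all 10 members, whereas 16.0% of all genes had no overlap. The log2 fold-changes (LFC, D2 against B6) of the members lay between −0.32 and 0.48, with a median of 0.09 against 0.0036 over all genes. Without B6 replicates 3 and 5, edgeR called 4 members, against 19.2% of all genes: Htr1a and Htr2c were higher in D2, and Htr1b and Htr1f were lower. A p-value that misses the threshold does not show that the strains have equal levels, and the confidence intervals of the LFC show how large a difference these mice leave possible.

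**Figure D2:**
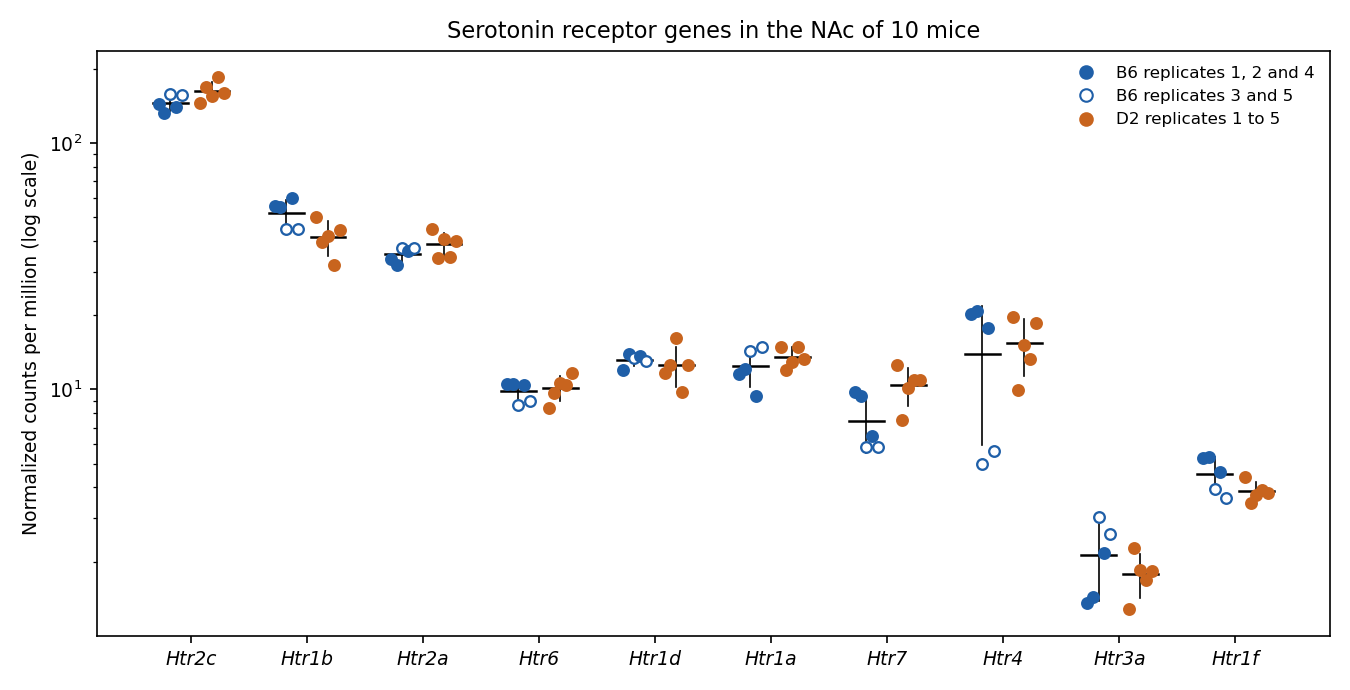
Normalized CPM of each receptor gene in each mouse on a log axis, with lines at the mean and bars of 1 SD for 5 B6 (blue) and 5 D2 (orange) mice. The strains overlap in every gene, and B6 replicates 3 and 5 (open circles) lie furthest from the other B6 mice in Htr4, at 4.99 and 5.64 against 17.7 to 20.8.

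Of the Gi/o-coupled members, Htr1b, a receptor of axon terminals that inhibits transmitter release, differed most between the strains. It lies on chromosome 9 from 81510344 to 81515902. Its CPM was 55.3, 55.0, 44.9, 59.8 and 45.0 in B6 replicates 1 to 5 and 49.9, 39.6, 41.9, 31.96 and 44.3 in D2 replicates 1 to 5. B6 replicates 3 and 5 were the lowest B6 mice, and 4 of the 5 D2 mice lay below them. The LFC was −0.32 (SE 0.111, 95% confidence interval −0.57 to −0.08, edgeR padj = 0.0639), and the two-sided exact permutation test of log2 CPM gave an unadjusted p of 0.0397. Without B6 replicates 3 and 5 the LFC was −0.45 and Htr1b was called (padj = 0.00889). It was also called when any of B6 replicate 3, B6 replicate 5 or D2 replicate 1 alone was left out, and over all 10 such fits its LFC stayed between −0.40 and −0.24.

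Htr1f, an inhibitory receptor related to Htr1b, had the lowest length-scaled level and 372 to 587 counts per library. On chromosome 16 it spans 64742111 to 64926217. Its CPM was 5.24, 5.32, 3.95, 4.62 and 3.61 in B6 and 4.39, 3.45, 3.73, 3.90 and 3.80 in D2. The B6 mice other than replicates 3 and 5 were above every D2 mouse, and replicates 3 and 5 were within the D2 range. Its LFC was −0.24 (SE 0.114, interval −0.49 to 0.01, padj = 0.182), and without these libraries it was −0.40 (padj = 0.00943).

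Htr1a, the inhibitory receptor of cell bodies and dendrites, had CPM of 11.5, 12.1, 14.3, 9.41 and 14.9 in B6 and 14.8, 11.9, 12.9, 14.9 and 13.3 in D2. It lies on chromosome 13 from 105580147 to 105584630. Here B6 replicates 3 and 5 were the highest B6 mice and stood within the D2 range. The LFC was 0.13 (SE 0.112, interval −0.12 to 0.37, padj = 0.516), and without these libraries 0.30 (padj = 0.0397). Htr1d, a close relative of Htr1b on chromosome 4 (136150835 to 136172370), ranged from 12.0 to 13.9 CPM in B6 and from 9.73 to 16.2 in D2. Its LFC was −0.08 (SE 0.107, interval −0.31 to 0.16, padj = 0.714), and leaving out B6 replicates 3 and 5 left it at −0.07. Htr1d was the member in which those libraries lay within the range of the other B6 mice.

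The Gq-coupled genes Htr2a and Htr2c had the smallest spread between mice of the same strain. The SD of log2 CPM within a strain was 0.118 for Htr2c and 0.138 for Htr2a, while the median over the 15388 genes that averaged 100 counts or more was 0.0937. Htr2c, a receptor of striatal neurons on the X chromosome (145745509 to 145980286), had CPM of 144, 133, 157, 140 and 156 in B6 and 146, 169, 155, 185 and 160 in D2. The highest values were those of 3 D2 mice, and B6 replicates 3 and 5 were the highest B6 mice. The LFC was 0.16 (SE 0.065, interval 0.02 to 0.30, padj = 0.122), with an exact permutation p of 0.0556. Without B6 replicates 3 and 5 it was 0.23 and Htr2c was called (padj = 0.0260).

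Htr2c is also transcribed strongly in the choroid plexus, so the markers of that tissue were read beside it. Ttr, the defining secreted protein of the choroid plexus, had 0.0476 to 0.316 CPM in B6 and 0.0378 to 0.499 in D2, and Folr1 had at most 10 counts in any library. The 8 markers summed to 19.5 and 20.7 CPM in B6 replicates 3 and 5, 40.0 to 41.5 in the other B6 mice and 36.6 to 48.6 in D2, most of which came from Clic6 (13.2 to 38.4 CPM) and Kl (4.91 to 9.70 CPM). None of the 8 markers was at 0 in every library. Folr1, with 1 to 10 counts in B6 and at most 1 in D2, was the marker that passed the test. Htr2a, the other Gq-coupled member, on chromosome 14 (74877344 to 74946934), ranged from 32.01 to 37.4 CPM in B6 and from 34.1 to 44.7 in D2, where 3 mice were above every B6 mouse. Its LFC was 0.13 (SE 0.075, interval −0.03 to 0.30, padj = 0.273), and without B6 replicates 3 and 5 it was 0.19 (padj = 0.155).

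Htr7 had the largest LFC of the members. This Gs-coupled receptor gene lies on chromosome 19 from 35935818 to 36035177. Its CPM was 9.79, 9.38, 5.82, 6.46 and 5.84 in B6 and 12.5, 7.52, 10.1, 10.9 and 10.9 in D2. B6 replicates 3, 4 and 5 were below every D2 mouse, and 4 D2 mice were above every B6 mouse. The LFC was 0.48 (SE 0.171, interval 0.11 to 0.85, padj = 0.0752), and the exact permutation test gave an unadjusted p of 0.0476. Without B6 replicates 3 and 5 it was 0.28 (padj = 0.268). Leaving out B6 replicate 1 (padj = 0.0260), B6 replicate 2 (padj = 0.0433) or D2 replicate 2 (padj = 0.0323) brought it past the threshold, and the LFC stayed between 0.40 and 0.60 over the 10 fits that each left out 1 mouse.

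Htr4 varied more between mice of the same strain than any other member. It lies on chromosome 18 and encodes a Gs-coupled receptor that is abundant in the basal ganglia. Its CPM was 20.3, 20.8, 4.99, 17.7 and 5.64 in B6 and 19.8, 9.98, 15.1, 13.3 and 18.7 in D2. B6 replicates 3 and 5 were the lowest of all 10 mice, with a mean of 5.31 against 19.6 in the other B6 mice, a ratio of 3.69. The SD of log2 CPM within a strain was 0.784, larger than in 99.1% of the 15388 genes. The LFC was 0.14 (SE 0.373, interval −0.67 to 0.96, padj = 0.853), and it changed sign to −0.35 without B6 replicates 3 and 5 (interval −0.73 to 0.02, padj = 0.192). Htr6, the remaining Gs-coupled member, a receptor found mainly in the striatum, ranged from 8.63 to 10.6 CPM in B6 and from 8.41 to 11.6 in D2. On chromosome 4 it spans 138786811 to 138802923. Its LFC was 0.05 (SE 0.090, interval −0.15 to 0.24, padj = 0.801) and −0.05 without B6 replicates 3 and 5 (padj = 0.757).

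Htr3a, the channel subunit and a marker of a class of cortical interneurons, had 150 to 287 counts per library, the fewest of the members. It is on chromosome 9 from 48810512 to 48822686. Its CPM was 1.36, 1.44, 3.05, 2.16 and 2.59 in B6 and 1.28, 2.28, 1.85, 1.68 and 1.83 in D2. B6 replicates 3 and 5 were the highest of all mice. The LFC was −0.24 (SE 0.223, interval −0.73 to 0.24, padj = 0.535), and it was 0.11 without these libraries (padj = 0.764).

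**Figure D3:**
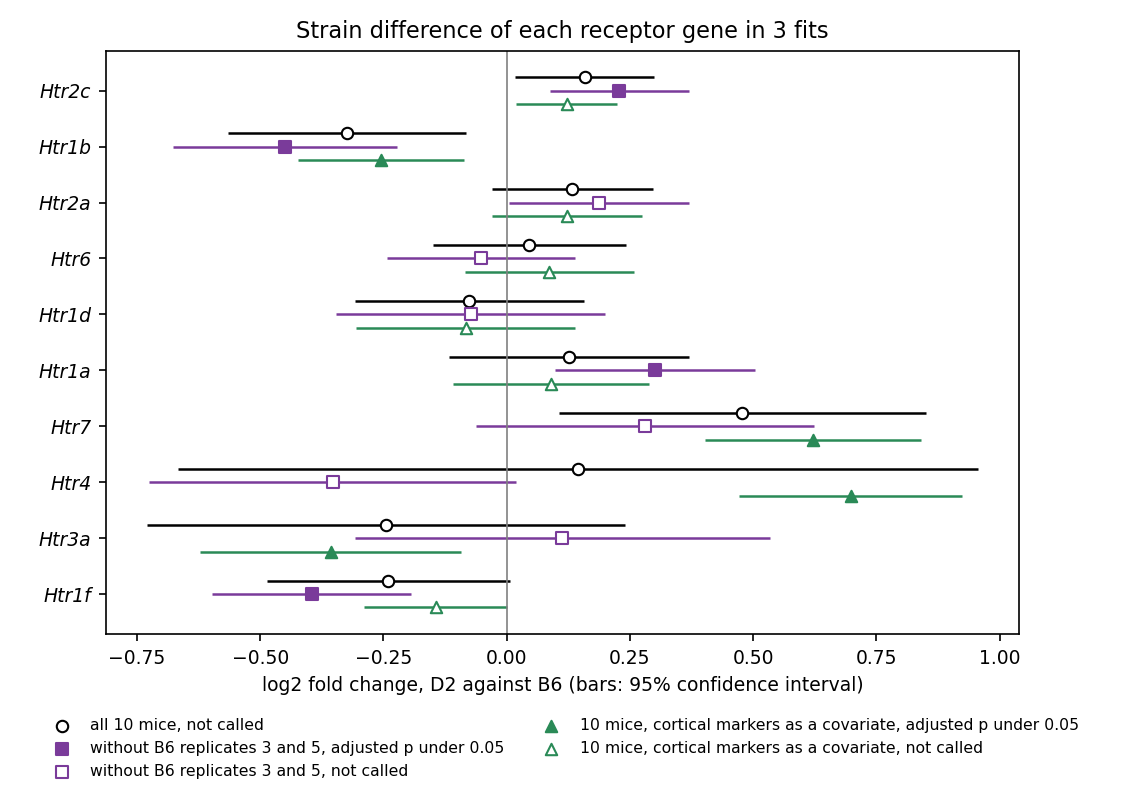
LFC of each receptor gene (D2 against B6) with 95% confidence intervals in 3 edgeR fits, where filled symbols passed an adjusted p of 0.05. No gene passed with all 10 mice, and Htr4 moved from 0.14 with all mice to −0.35 without B6 replicates 3 and 5 and 0.70 with cortical markers as a covariate.

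Across the members, B6 replicates 3 and 5 were both below the other B6 mice in Htr1b, Htr1f, Htr4, Htr6 and Htr7 and both above them in Htr1a, Htr2a, Htr2c and Htr3a. Over all genes they were below in 21.9% and above in 19.9%. The 8 markers of cortical projection neurons summed to 995 and 1012 CPM in these libraries, 157 to 239 in the other B6 mice and 309 to 670 in D2, and none of the 8 was at 0 in every library. None of them passed the strain test with all mice, against 18.3% of all genes. At an unadjusted p under 0.05 there was 1 of 8, against 29.4% of all genes. The sums of replicates 3 and 5 lay above the D2 range and those of the other B6 mice below it. With this spread within B6, the test does not show that the strains have equal levels of these markers. Cholinergic interneuron markers moved the other way and summed to 43.2 and 44.6 CPM in replicates 3 and 5, 85.9 to 103 in the other B6 mice and 74.1 to 124 in D2, and 0 of 5 were called. The 7 markers of the Htr3a class of interneurons summed to 317 and 313 CPM, then 198 to 210 and 203 to 241, and 0 of 7 were called. The calls of these interneuron lists are also read against 18.3% of all genes. Markers of direct pathway striatal neurons summed to 542 and 554 CPM in replicates 3 and 5, 709 to 773 in the other B6 mice and 615 to 742 in D2. Those of indirect pathway neurons summed to 1279 and 1283 CPM in that pair against 1584 to 1768 in the other B6 mice, and those of oligodendrocytes to 5822 and 5782 against 3981 to 4757. The choroid plexus list separated the same pair, at 19.5 and 20.7 CPM against 40.0 to 41.5. The part of these cells in the receptor values was not tested beyond the fits that follow.

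Each marker covariate was the mean log2 CPM of its list, in which every marker weighs equally. With the cortical markers as the covariate and all 10 mice, 25.9% of all genes and 4 members were called. Htr4 (LFC = 0.70, padj = 1.6e-04) and Htr7 (0.62, padj = 3.33e-04) were higher in D2, and Htr1b (−0.25, padj = 0.0264) and Htr3a (−0.36, padj = 0.0467) were lower. No B6 mouse had a cortical marker sum within the D2 range. B6 replicates 3 and 5 lay above it, at 995 and 1012 CPM, and the other B6 mice below it. The strain differences of this fit therefore depend on that pair, and the LFC of Htr4 was −0.35 without it and without the covariate. With the choroid plexus markers as the covariate, a list in which Ttr was near 0 and whose sum was lowest in B6 replicates 3 and 5, Htr2c (0.19, padj = 0.0165) and Htr7 (0.38, padj = 0.0411) were higher, and Htr1b (−0.38, padj = 0.00393) and Htr1f (−0.31, padj = 0.0116) were lower, against 22% of all genes (6575). With the cortical covariate and without B6 replicates 3 and 5, 6.32% of all genes passed, and Htr1a (0.67, padj = 0.0233) and Htr7 (1.05, padj = 0.0130) were called. In this last fit the cortical markers of the remaining mice did not overlap between the strains, at 157 to 239 CPM in B6 and 309 to 670 in D2, so that the strain and these markers cannot be told apart there. Htr7 was called in each of these covariate fits and by DESeq2, but not in the fit without B6 replicates 3 and 5 alone. Htr1b was called in the fit without those libraries and in each covariate fit with all 10 mice, and was not called with the covariate and the libraries left out together (padj = 0.751).

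**Figure D4:**
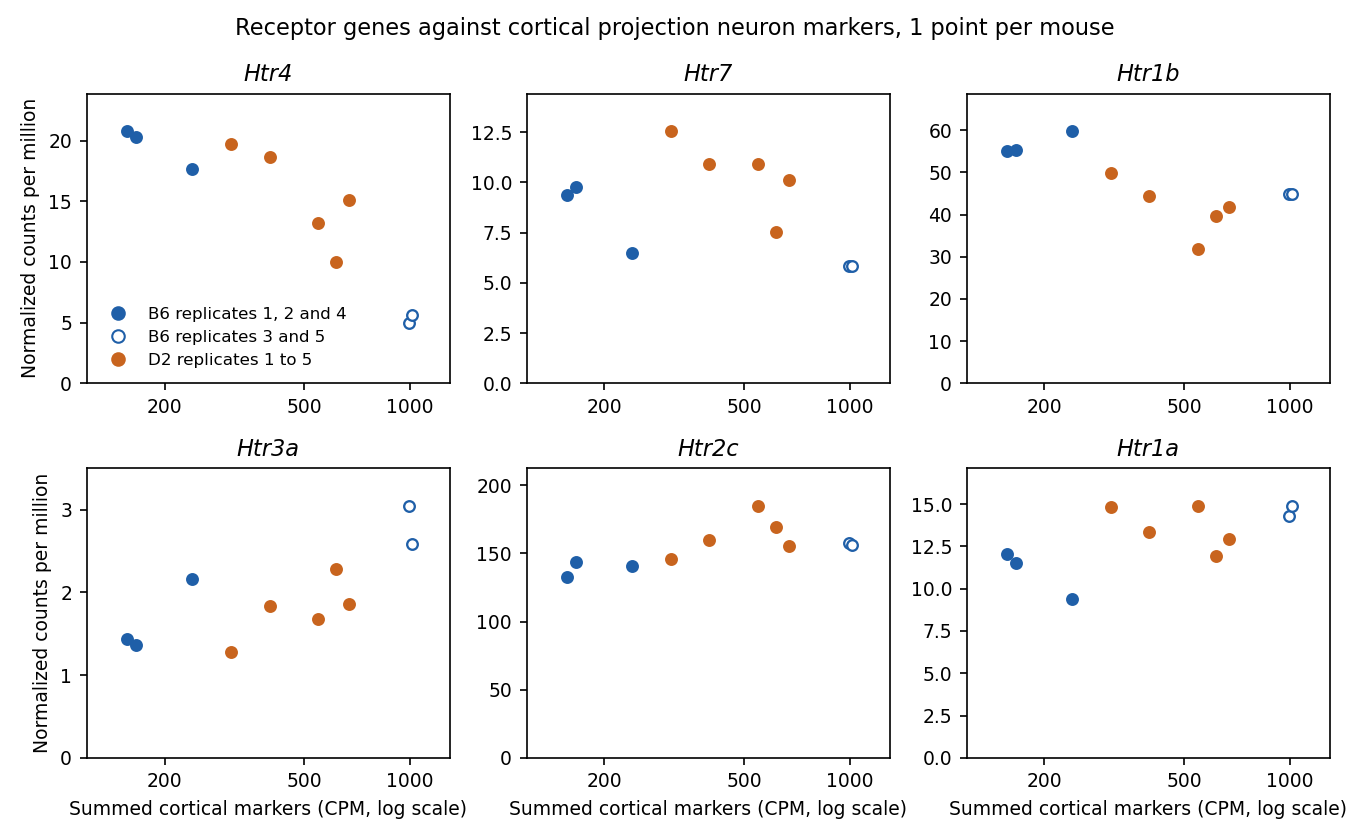
CPM of 6 receptor genes against the summed CPM of 8 cortical projection neuron markers on a log axis, 1 point per mouse. B6 replicates 3 and 5 (open circles) lie at the right of each panel, at 995 and 1012 CPM of markers, and have the lowest Htr4 and Htr7 and the highest Htr3a values.

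Among the other serotonin receptor genes, Htr5a, a Gi/o-coupled receptor, was the one with an appreciable level. Its CPM was 13.6, 13.8, 22.3, 13.7 and 21.4 in B6 and 15.4, 16.3, 18.9, 17.4 and 16.2 in D2, which is 1.92 and 1.91 CPM per kb. B6 replicates 3 and 5 were the highest of all mice and the other B6 mice the lowest. The LFC was −0.01 (SE 0.145, interval −0.32 to 0.31, padj = 0.978), and without these libraries it was 0.30 and called (padj = 0.00610). Htr5b had 33 to 65 counts in B6 and 24 to 47 in D2 (LFC = −0.68, SE 0.260, padj = 0.0939). With the cortical covariate it was −0.76 and called (padj = 0.0289). Htr2b (0 to 7 counts, LFC = −0.71, padj = 0.570) and Htr3b, the partner subunit of Htr3a (0 to 8 counts, LFC = 0.47, padj = 0.729), were close to the limit of 3 counts that a count of 0 allows, for counting error only. In total 0 of these 4 genes were called by edgeR, against 18.3% of all genes. At an unadjusted p under 0.05 there was 1 of 4, against 29.4% of all genes.

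Genes of serotonin synthesis, transport and breakdown gave 2 called genes of 12, both lower in D2, a share near the 18.3% of all genes. Maob, a monoamine oxidase of the outer mitochondrial membrane, averaged 22.5 ± 1.04 CPM (SD, n = 5) in B6 and 17.5 ± 1.31 in D2 with no overlap between the strains, an LFC of −0.36 (SE 0.056, padj = 4.68e-04). Maoa, the form that prefers serotonin, averaged 37.9 ± 2.15 and 37.8 ± 1.70 CPM (LFC = −0.004, SE 0.046, padj = 0.968). Qdpr, which regenerates the cofactor of tryptophan hydroxylase, had an LFC of −0.32 (SE 0.089, padj = 0.0245). Its CPM was 156 and 164 in B6 replicates 3 and 5, 124 to 142 in the other B6 mice and 95.6 to 124 in D2. When any of B6 replicate 3, B6 replicate 5, D2 replicate 4 or D2 replicate 5 alone was left out, 1 of the 12 genes was called. Without B6 replicates 3 and 5 together, 3 of the 12 were called, all lower in D2, against 19.2% of all genes. The genes that define serotonin neurons had low counts. Tph2, their tryptophan hydroxylase, had 41 to 68 counts in B6 and 48 to 72 in D2 (LFC = −0.02, padj = 0.963), and Slc6a4, the serotonin transporter, 3 to 10 and 4 to 10 counts (LFC = −0.12, padj = 0.887). Tph1, the hydroxylase of peripheral tissues and the pineal gland, had 4 to 31 and 10 to 30 counts (LFC = −0.19, padj = 0.857). Slc18a2, the vesicular monoamine transporter, had 88 to 244 and 113 to 340 counts (LFC = 0.21, padj = 0.716). Of the 5 markers of serotonergic neurons, 0 were called, and their sum was 6.06 to 9.96 CPM in B6 and 5.63 to 8.40 in D2.

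The signalling partners of each class were counted in the same fit and are read against the same 18.3% of all genes. Of the 10 genes of Gi/o signalling downstream of the Htr1 receptors, 1 was called, and the median LFC was −0.0032. This gene was Gnao1, the main Go alpha subunit of neurons, with an LFC of −0.20 (padj = 0.00832). Without B6 replicate 1 alone, 2 of the 10 were called, both lower in D2. Without B6 replicates 3 and 5, 4 were called, of which 3 were higher and 1 lower, against 19.2% of all genes. Of the 10 genes of Gq signalling, 4 were called, all lower in D2, with a median LFC of −0.02 over the 10. They were the phospholipases Plcb1 (LFC = −0.42, padj = 0.00147), Plcb2 (−0.30, padj = 0.0153) and Plcb3 (−0.24, padj = 0.00144) and the protein kinase C gene Prkcb (−0.22, padj = 0.00826). The fit without B6 replicates 3 and 5 also called 4, of which 3 were lower and 1 higher, against 19.2% of all genes. Of the 10 genes of Gs signalling, 2 were called, with a median LFC of −0.04. Adcy5, the main adenylyl cyclase of the striatum, was lower in D2 (LFC = −0.30, padj = 0.00267), and Prkaca, a catalytic subunit of protein kinase A, was higher (0.15, padj = 0.00398). When B6 replicates 3 and 5 were left out, 7 of the 10 were called, 3 higher and 4 lower in D2, against 19.2% of all genes. These genes serve many receptors besides those of serotonin.

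Of the 13 genes for receptor partners, RNA editing and desensitization, 5 were called, against 18.3% of all genes. Among the called genes 2 were higher and 3 lower in D2, and the median LFC of the 13 was −0.05. Grk5, a kinase that desensitizes receptors (LFC = 0.28, padj = 6.12e-04), and Arrb2, a beta-arrestin (0.18, padj = 0.00239), were higher. Dlg4, the postsynaptic scaffold that binds the tail of Htr2a and Htr2c (−0.17, padj = 0.00587), Arrb1, the other widely expressed beta-arrestin (−0.16, padj = 0.0123), and Adar (−0.09, padj = 0.0441) were lower. Adar and Adarb1 encode enzymes that edit the Htr2c transcript at the adenosines shown in capitals above, and the LFC of Adarb1 was 0.09 (padj = 0.451). Without B6 replicates 3 and 5, 6 of the 13 genes were called, 3 higher and 3 lower in D2, against 19.2% of all genes.

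Markers of cell types of the tissue were counted in the same fit, where 18.3% of all genes were called, 8.50% higher and 9.83% lower in D2. Of the 5 markers of indirect pathway striatal neurons, 4 were lower in D2 (Drd2, Adora2a, Penk and Gpr6), and their sum was 1279 to 1768 CPM in B6 and 945 to 1223 in D2, without overlap. Of the 6 markers common to all striatal projection neurons, 5 were lower (among them Rgs9, Pde10a, Bcl11b and Meis2), with sums of 3776 to 4555 and 3055 to 3637 CPM. Of the 5 direct pathway markers, 1 was called, Eya1, which was higher in D2, and their sums of 542 to 773 and 615 to 742 CPM overlapped. These defining markers were present in every library, with Drd1 at 189 to 247 CPM in B6 and 194 to 230 in D2. Thalamic and septal markers gave 2 called of 6 (Trpc4 higher, Lhx2 lower), astrocytes 3 of 5 (Gja1 higher, Aqp4 and Aldh1l1 lower), oligodendrocytes 3 of 5 (Mog, Mag and Mobp, all lower), microglia 2 of 5 (P2ry12 higher, C1qa lower) and endothelium 0 of 5, with 2 of 5 at an unadjusted p under 0.05. Over all genes, 29.4% had an unadjusted p under 0.05. These calls used all 10 mice. The oligodendrocyte sum was 5822 and 5782 CPM in B6 replicates 3 and 5. It was 3981 to 4757 in the other B6 mice, which overlapped the 3010 to 4400 of D2. The part of these cell types in the receptor values was not tested.

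The genes whose pattern over the 10 mice was most like that of a member are given by Pearson's r of log2 CPM after the strain mean was removed, among 15387 genes that averaged 100 counts or more. All of them share the same libraries, and each was picked as the highest of many, so they are a description. Htr4 was matched most closely by Otof (r = 0.996), Sall2 (0.994) and Slc10a4 (0.994), and without its 2 most distant mice, B6 replicates 3 and 5, the r of these genes was 0.992, 0.986 and 0.989. Slc10a4 is a vesicular protein of cholinergic and monoaminergic neurons, and it ranged from 10.3 to 27.9 CPM. Htr3a was matched by Mir22hg (0.993), Tiam2 (0.975) and Zc3h7b (0.967), and Htr1f by AI606473 (0.990), Rims3 (0.985) and Lsm6 (0.984).

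Htr7 was matched by Ppp2r5e (r = 0.983), Rbsn (0.979) and Dcc (0.978), and Htr2c by Wdr95 (0.954) and Cacna1e (0.952), the latter a voltage-gated calcium channel subunit with 612 to 714 CPM. Htr6 was matched by Btbd19 (0.966), Gm42583 (0.961) and Ppcs (0.960), Htr1a by Map2k4 (0.965), Galnt17 (0.964) and Arhgef12 (0.963), and Htr2a by Mrps18a (0.952), Cacng2 (0.919) and Gpr137c (0.918). The matches of Htr1b were Cdc42ep3 (0.943), Arhgef3 (0.935) and Bcan (0.933). Those of Htr1d were Spcs3 (0.940), Mkrn3 (0.896) and Man1c1 (0.891), and Spcs3 fell to an r of 0.589 without the 2 most distant mice, D2 replicates 3 and 4.

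Htr1b shares 897 exon bases with D430036J16Rik, a long noncoding RNA on the opposite strand, and whether reads were counted by strand is not given in the sources used here. The CPM of D430036J16Rik was 21.0 ± 4.23 in B6 and 20.5 ± 1.40 in D2 (SD, 5 mice each) (LFC = −0.04, SE 0.117, padj = 0.876). Htr2c shares 215 exon bases with Gm61665, an antisense RNA that was not analysed here. Reads of such partners cannot be told apart from those of Htr1b and Htr2c if strand was ignored. Both strains were aligned to the B6 genome, and the effect of D2 alleles on the counts of each receptor was not tested.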

How the data were processed

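NAc RNA from 5 B6 and 5 D2 mice was sequenced with 1 library per mouse, each mouse being a replicate. According to their methods, the authors used fastp to trim reads, STAR 2.7.10b to align each strain to GRCm39 (Ensembl release 108), SAMtools 1.6 to sort the alignments and featureCounts to count reads per gene. The tool names and versions are those of the submitters' processing notes. The authors deposited raw counts, without normalization, for 29883 genes, after they had removed genes with a median of 0 (the lowest median is 0.5). The strand and multi-mapping settings of featureCounts are not given in the sources used here. For library preparation the labels name Novogene and the methods a VCU core facility. Depth was 96977262 to 116776714 counts per library, and intervals from counts cover counting error only.

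All genes were fitted with edgeR 4.0.16 in R 4.3.3 (TMM, quasi-likelihood F test, two-sided, strain as the factor, no covariate), with Benjamini-Hochberg adjustment over all genes. The SE is the absolute LFC divided by the square root of F, and CPM use TMM library sizes. Values per mouse were compared by exact permutation over 252 assignments (smallest p 0.0079), which were computed for each of the 10 members and are unadjusted. Exon lengths, positions and sequences came from GENCODE M39 on GRCm39, which held 29519 of the genes. The study used DESeq2, here (1.42.0) an alternative. Other alternatives were 3 other normalizations, 2 filters on low counts, the replicate block, marker covariates, a threshold of 0.01 and leaving out each mouse. Leaving out B6 replicates 3 and 5, alone and with the cortical covariate, was added after the data were seen. The fits were tested on simulated data.

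The members and gene lists were chosen with earlier results of these data known. Genes named are all members, the other receptor genes, Tph1, Tph2, Slc6a4, Slc18a2, Maoa and Maob, up to 4 called genes of each pathway list by size of LFC, and for each member the 3 genes most like it. The nearest neighbours of called members were also to be named, but no member was called. Some genes under these rules are not reported here. Adar, Adarb1, Slc17a7, Slc22a3, the overlapping antisense genes and the called cell markers were named after their values were seen. qRT-PCR, exon usage, splicing and SNPs were not analysed here.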

Additional observations from a re-analysis of the deposited data

Results flagged for a closer look

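Tph1 in D2 replicate 2 stood apart from the other D2 mice, at 0.271 CPM against 0.0870 to 0.122. The gap to the next mouse was 0.808 of the range of the 5 D2 mice, above Dixon's 95% critical value of 0.71. This was 1 of 40 groups looked at (the 10 members, the 4 other receptor genes and the 6 named genes of serotonin synthesis, transport and breakdown, in each strain), and chance flags about 1 in 20 groups. The values rest on 10 to 30 counts per D2 library.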

How the results depend on the processing

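The number of members called was 0 of 10 in edgeR with all mice, against 18.3% of all genes. It was 2 with DESeq2 (20.7% of all genes), 4 with the cortical covariate (25.9%) and 4 with the choroid plexus covariate (22%). It was 4 without B6 replicates 3 and 5 (19.2%) and 2 with the cortical covariate and those libraries left out (6.32%). When each mouse was left out, it was 0 to 1. It stayed at 0 under DESeq2 size factors, total counts, upper-quartile normalization, both filters and the replicate block. A stricter threshold of 0.01 in the main fit could only give 0 as well. LFC changed sign without B6 replicates 3 and 5 for Htr3a (0.11), Htr4 (−0.35) and Htr6 (−0.053), and with the cortical covariate in addition for Htr2c (−0.0022) and Htr6 (−0.19). With 1 mouse left out, it changed sign for Htr1d (0.0031 without D2 replicate 4), Htr4 (−0.074 without B6 replicate 3 and −0.061 without B6 replicate 5, over a range of −0.07 to 0.33) and Htr6 (−0.0021 without B6 replicate 3 and −0.0075 without D2 replicate 5). The cause was not tested.

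Without B6 replicates 3 and 5, 4 of 10 Gi/o genes, 7 of 10 Gs genes and 1 of 4 other receptor genes were called, against 19.2% of all genes. The cortical covariate gave 3, 5 and 1 of these and 8 of 13 receptor partners, against 25.9% of all genes. The choroid plexus covariate gave 3 Gi/o and 4 Gs genes, against 22% of all genes. At a threshold of 0.01, 3415 of all genes, 3 receptor partners and 1 gene of serotonin synthesis, transport and breakdown passed. With each mouse left out, the calls were 1 to 2 (Gi/o), 4 to 4 (Gq), 2 to 3 (Gs), 4 to 6 (partners), 1 to 2 (synthesis, transport and breakdown), 0 to 0 (other receptors) and 4636 to 5676 (all genes), 0 to 3 members had an exact p under 0.05, and the depth difference was 5202662 to 8825366 reads, past the threshold without B6 replicate 1 or D2 replicate 5. The share of Htr2c was 48.2% with the longest transcript as its length. Correlations of same-numbered mice ranged from −0.42 to 0.37, and 2 of 5 B6 mice correlated best with the D2 mouse of their own number. These correlations cannot tell whether same-numbered mice were processed together. With the replicate block 0 members, 2 Gi/o genes and 4731 of all genes were called.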
